A study of Scyliorhinus canicula with 3 samples.

Results

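The genes described here are those of the catshark *Scyliorhinus canicula* whose symbol names a ligand, receptor, secreted antagonist or effector of the Wnt, bone morphogenetic protein (BMP), transforming growth factor beta (TGF-beta) or fibroblast growth factor (FGF) pathways. Of 29017 annotated features, 65 carried a symbol that begins with wnt, fzd, dkk, bmp, gdf, tgfb, smad, fgf or fgfr and a number or receptor letter, or with sfrp or bmpr. Of these, 60 had at least 10 unique molecular identifiers (UMIs, each counting 1 captured RNA molecule) in the nuclei that passed the study's limits, and these 60 are the members described. The 5 left out were *fgf3*, *fgf4*, *fgf19*, *fzd9a* and *dkk1b*, with 1 to 8 UMIs each. By role the members were 13 Wnt ligands, 3 Frizzled receptors, 4 secreted Wnt antagonists, 9 BMP or growth differentiation factor (GDF) ligands, 1 TGF-beta ligand, 7 BMP or TGF-beta receptors, 8 Smads, 9 FGF ligands and 3 intracellular FGF homologous factors (FHFs). The remaining 3, *bmp2k*, *tgfbrap1* and *fgfr1op2*, matched by name only and encode a kinase, a receptor-associated protein and a protein named for a gene fusion with an FGF receptor. No FGF receptor carried an fgfr symbol, and 57.7% of the features other than mitochondrial ones had a number in place of a symbol, so members of these families that lack a symbol were not analysed here.

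Wnt proteins are secreted ligands that bind Frizzled receptors together with Lrp5 or Lrp6, and the canonical branch acts through beta-catenin and Tcf/Lef factors, while secreted Frizzled-related proteins (Sfrp) and Dickkopf proteins (Dkk) limit ligand action outside the cell. BMP, GDF and TGF-beta ligands assemble type I and type II serine/threonine kinase receptors that phosphorylate Smad1, Smad5 and Smad9 or Smad2 and Smad3, which enter the nucleus with Smad4, and Smad6 and Smad7 inhibit the pathway. FGF ligands signal through receptor tyrosine kinases to the MAP kinase cascade, and Sprouty and Spred proteins restrain it. In the developing eye of other vertebrates these pathways pattern the optic cup and the ciliary margin, and in fishes they also act on progenitors and on the Müller glia (MG) that can return to the cell cycle.

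The data were 3 single-nucleus RNA libraries, 1 from a retina of each of 3 female juvenile catsharks of 11.0, 10.5 and 11.1 cm total length, with no treatment and a single condition. All comparisons were therefore made between classes of nuclei within the same animals, and n = 3 animals throughout. Counts covered whole genes, introns included, and were summed per class and library, and levels are given as counts per 1000000 UMIs of the sum (CPM). These levels are not divided by gene length and serve to compare classes for 1 gene, not genes with each other.

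The libraries held 50691314 to 73310348 UMIs, and 6053, 4425 and 10154 nuclei in libraries 1, 2 and 3 were within the limits. Between 1 and 16 barcodes were shared by a pair of libraries, and none by all 3. Called doublets were removed, as were 3 clusters of 2194 nuclei in all, each with at least 80% of its nuclei in a single library and no retinal marker among its 10 leading genes, so that 17735 nuclei remained. The largest of the 3, with 102, 61 and 1166 nuclei in libraries 1, 2 and 3, had 3 of 10 rod markers raised and a median of 907 UMIs. Its removal may take nuclei from the rod-like class, of library 3 in the main. Whether these were rod nuclei was not tested. Clusters were made with the 60 members left out of the genes used, so that no member could define a class, although genes that vary with them could. Of 24 clusters, 20 formed 10 named classes: MG-like, retinal progenitor cell (RPC)-like, photoreceptor (PR) precursor-like, rod-like, horizontal cell (HC)-like, bipolar cell (BC)-like, GABAergic, glycinergic and cholinergic amacrine cell (AC)-like, and retinal ganglion cell (RGC)-like. Clusters 7, 10, 17 and 22 stayed unnamed. Cluster 17, led by *slc6a5*, missed the glycinergic name with a mean log2 ratio of 0.4998 over the list, where 0.5 was asked. At resolution 0.8 a cluster of 378 nuclei with the same 10 leading genes took that name. The 374 nuclei of cluster 17 are therefore in the reference of the glycinergic AC-like class. Class names were rebuilt here from marker lists, so a difference from the published classes may come from the names. No oligodendrocyte-like cluster was found at the resolution used, and 69 of 70 nuclei that carried oligodendrocyte markers in the first clustering fell in cluster 7.

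The MG-like class held 872 nuclei, 118, 299 and 455 of them in libraries 1, 2 and 3. Its 10 leading genes included the glial markers *rlbp1b* and glutamine synthetase, *chrdl2*, *slc1a6*, *mlc1* and, first of all, *flt1*, a receptor of vascular endothelial growth factor, and 6 of 8 glial markers were raised, *aqp4*, *clu* and the *gfap* gene among them. The 8 glial markers in the annotation summed to 3590, 4449 and 2768 CPM, against 275, 688 and 472 CPM in RPC-like nuclei. The RPC-like class held 385 nuclei, 153, 54 and 178 per library, with *smoc1*, *prss56*, *top2a*, *hells* and *ccnd1* among its 10 leading genes. The 18 progenitor and cell cycle markers in the annotation summed to 2654, 2157 and 2734 CPM in it, against 536, 428 and 423 CPM in MG-like nuclei, and *dll4* was the only one of them without a UMI. Depth was lowest in the RPC-like sum of library 2, with 138161 UMIs, so that 1 UMI was worth 7.24 CPM there. Near-empty droplets, the barcodes with at least 200 features and a UMI total at or under their library's median, stand in for free RNA. Shallow or damaged nuclei among them were not excluded. Their level is quoted beside members at low levels.

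In MG-like nuclei, 12 of the 56 members tested were called higher than in all other nuclei (21.4%, against 7.18% of all 18661 genes tested) and 2 were called lower (against 4.73% of all genes). A gene was called at a Benjamini-Hochberg adjusted p under 0.05 in edgeR's quasi-likelihood test and an absolute log2 fold change of at least 1. The higher members were 2 of 3 Frizzled receptors (*fzd4*, *fzd8a*), 3 of 8 BMP or GDF ligands tested (*bmp7b*, *bmp4*, *gdf6a*), *tgfb2*, 4 of 7 BMP or TGF-beta receptors (*bmpr1aa*, *bmpr1ba*, *bmpr2b*, *tgfbr3*) and 2 of 8 Smads (*smad1*, *smad3b*). None of the 11 Wnt ligands, 8 FGF ligands or 4 Wnt antagonists tested was called in either direction. The median log2 fold change was 0.22 over the members tested and -0.03 over all genes tested. Not tested for low counts were *bmp3*, *fgf16*, *wnt4* and *wnt16*.

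In RPC-like nuclei, 9 of 54 members tested were called higher than in all other nuclei (16.7%, against 6.4% of all 18414 genes tested) and 4 were called lower (against 10.4% of all genes). The higher members were *fzd8a*, the antagonist *sfrp5*, the ligands *bmp7b*, *bmp6* and *tgfb2*, the receptor *bmpr1ba*, and 3 of 8 Smads (*smad1*, *smad3b*, *smad6b*). All 3 FHFs and the ligand *fgf22* were the lower ones. The median was 0.14 over the members and -0.12 over all genes tested. Of the 10 Wnt ligands tested none was called, and *wnt5a*, *wnt7aa*, *wnt16*, *bmp3* and *fgf16* had no UMI in RPC-like nuclei, where a count of 0 over the 3 libraries allows up to 1.87 CPM by counting error alone.

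**Figure D1:**
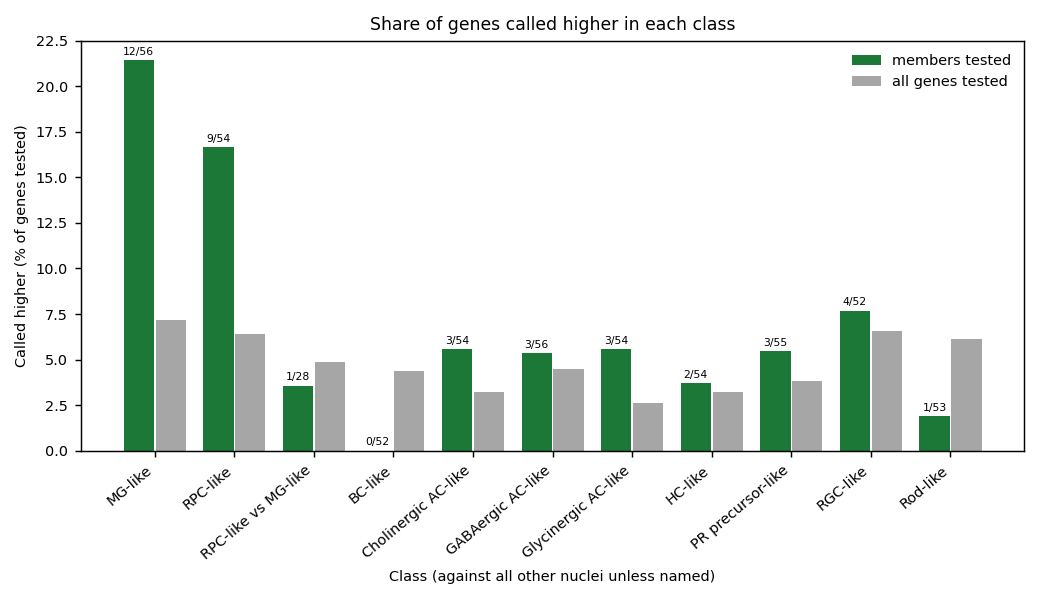
Share of genes called higher in each comparison, in percent of the genes tested, for the members (green, with the number called over the number tested) and for all genes tested (grey). The members' share was 21.4% in MG-like and 16.7% in RPC-like nuclei, against 7.18% and 6.4% of all genes.

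Frizzled receptors, the serpentine receptors of Wnt ligands, were the role group with the largest median change in MG-like nuclei, 2.96 on the log2 scale over its 3 members. *fzd4* (chromosome 14, 85276854 to 85282517 in build sScyCan1.1) had 21.5, 13.8 and 8.66 CPM in MG-like nuclei of libraries 1, 2 and 3, against 0.610, 2.11 and 1.51 CPM in all other nuclei. Every MG-like value lay above every pooled value of the other nuclei. The log2 fold change was 3.28 ± 0.46 (SE, edgeR's quasi-likelihood test, Benjamini-Hochberg adjusted p = 5.5e-05). Those other nuclei include the unnamed cluster 7, which averaged 12.5 CPM of *fzd4*, against 14.7 CPM in MG-like nuclei. The highest library of cluster 7 had 23.0 CPM, and MG-like nuclei were the highest class in 1 of 3 libraries. Near-empty droplets had 2.24, 4.72 and 2.10 CPM. *fzd4* is known from vessels in mammals, and *flt1* led the MG-like class. The 8 endothelial markers in the annotation summed to 16.9, 17.9 and 25.4 CPM in MG-like nuclei. These sums are not set against other classes here, and whether vessel nuclei carried *fzd4* was not tested.

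*fzd8a* (chromosome 5, 192598609 to 192601202) was called in both classes. It had 6.15, 10.3 and 15.0 CPM in MG-like nuclei against 0.516, 1.41 and 2.15 CPM in all other nuclei, and 5.51, 14.5 and 28.5 CPM in RPC-like nuclei against 0.475, 2.196 and 2.42 CPM in all nuclei but these. The groups did not overlap in either comparison, with log2 fold changes of 2.96 ± 0.39 and 3.16 ± 0.61, and near-empty droplets had 0.187, 2.36 and 1.54 CPM. The RPC-like sums held 23 UMIs of it, 2 of them in library 2, and without library 3 the call there was lost (2.96, adjusted p = 0.11 by edgeR). *fzd3a*, a receptor of the planar polarity branch, was the Frizzled gene with most UMIs and was called in neither class, with 50.7, 65.5 and 78.5 CPM in MG-like nuclei and 72.7, 116 and 107 CPM in RPC-like nuclei, against 59.5, 86.3 and 74.0 CPM over all nuclei kept.

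No Wnt ligand tested was called in glia or progenitors. The median log2 fold change of those tested was 0.30 in MG-like nuclei, against -0.03 for all genes. In RPC-like nuclei it was -0.67, against -0.12 for all genes. *wnt5b*, a ligand of the non-canonical branch and the one with most UMIs, had 15.4, 37.2 and 17.9 CPM in MG-like nuclei and 12.1, 29.0 and 16.0 CPM in RPC-like nuclei, against 6.54, 17.3 and 11.0 CPM in near-empty droplets. All class means of *wnt5b* lay between 11.4 CPM in RGC-like and 24.3 CPM in rod-like nuclei. The other 12 Wnt ligands averaged at most 4.99 CPM in MG-like nuclei, and at most 8.57 CPM in RPC-like nuclei, a value of *wnt9a* that rested on 3 UMIs in library 2.

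The secreted antagonist *sfrp5* (chromosome 16, 7919604 to 8015473) differed between the 2 classes. It had 43.0, 72.4 and 19.6 CPM in RPC-like nuclei, against 0, 2.07 and 5.20 CPM in MG-like nuclei and 4.56, 3.75 and 6.11 CPM in all nuclei but the RPC-like ones. RPC-like values were the highest of all classes and unnamed clusters in 3 of 3 libraries, none overlapped with MG-like values, and near-empty droplets had 4.67, 4.98 and 4.47 CPM. The log2 fold change was 2.75 ± 0.40 against all other nuclei (adjusted p = 1.2e-10 by edgeR's quasi-likelihood test) and 3.52 ± 0.65 against MG-like nuclei (adjusted p = 0.0017). *dkk3b*, *dkk2* and *sfrp2* were called in neither class.

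The BMP ligand with most UMIs in both classes was *bmp7b* (chromosome 7, 127818566 to 128045255). It had 300, 188 and 244 CPM in MG-like nuclei against 26.9, 22.2 and 24.2 CPM in all other nuclei, and 172, 138 and 171 CPM in RPC-like nuclei against 29.1, 38.0 and 34.9 CPM in all nuclei but these. Neither pair of groups overlapped, and the log2 fold changes were 3.31 ± 0.20 (adjusted p = 6.4e-09) and 2.07 ± 0.22 (adjusted p = 1.4e-19), both by edgeR's quasi-likelihood test. Glycinergic AC-like nuclei came next with 109, 68.7 and 44.6 CPM, and the other named classes averaged 12.5 to 23.7 CPM, with 8.37 CPM in near-empty droplets.

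*bmp4*, the ligand that marks the dorsal optic cup in other vertebrates, was called higher in MG-like nuclei and in no other named class. It averaged more in the unnamed clusters 7 (23.3 CPM) and 22 (23.1 CPM, and 50.0 CPM in its highest library), which were not tested. It had 16.9, 20.7 and 9.24 CPM in MG-like nuclei against 4.78, 3.44 and 3.51 CPM in all other nuclei, without overlap (log2 fold change 1.98 ± 0.33), and near-empty droplets had 8.50, 6.43 and 5.52 CPM, more than those other nuclei in each library. In RPC-like nuclei it had 5.51, 0 and 3.56 CPM, and the direct difference of RPC-like from MG-like nuclei, -1.90 ± 0.65, missed the threshold (adjusted p = 0.061, edgeR). *bmp6*, a ligand of the same subgroup as Bmp7, was called in RPC-like nuclei, with 19.8, 36.2 and 7.12 CPM in RPC-like nuclei against 3.18, 5.31 and 4.67 CPM in all nuclei but these (1.86 ± 0.51), and 3.07, 4.14 and 4.04 CPM in MG-like nuclei, with a mean of 2.05 CPM in near-empty droplets. Its direct difference from MG-like nuclei, 2.01 ± 0.66, also missed the threshold (adjusted p = 0.053, edgeR). The call of *bmp6* in RPC-like nuclei was lost without library 1 (1.39, adjusted p = 0.37 by edgeR) and without library 2 (1.69, adjusted p = 0.085 by edgeR). *gdf6a*, a dorsal ligand of the zebrafish eye, had the largest fold change of the members in MG-like nuclei, 4.49 ± 0.70, at a low level of 10.8, 2.07 and 4.62 CPM against 0.141, 0.156 and 0.340 CPM in all other nuclei. It rested on 18 UMIs in MG-like nuclei, with a mean of 0.397 CPM in near-empty droplets, and is named although it lies under the 10 CPM asked of named genes.

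*tgfb2* (chromosome 1, 257625864 to 257718621), the only TGF-beta ligand with a symbol, rose in both classes. It had 132, 80.7 and 102 CPM in MG-like nuclei against 35.4, 44.8 and 41.6 CPM in all other nuclei (1.36 ± 0.21), and 147, 138 and 116 CPM in RPC-like nuclei against 33.6, 47.6 and 43.9 CPM in all nuclei but these (1.50 ± 0.22). Values of glia and progenitors overlapped with each other, and neither overlapped with its reference nuclei.

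**Figure D2:**
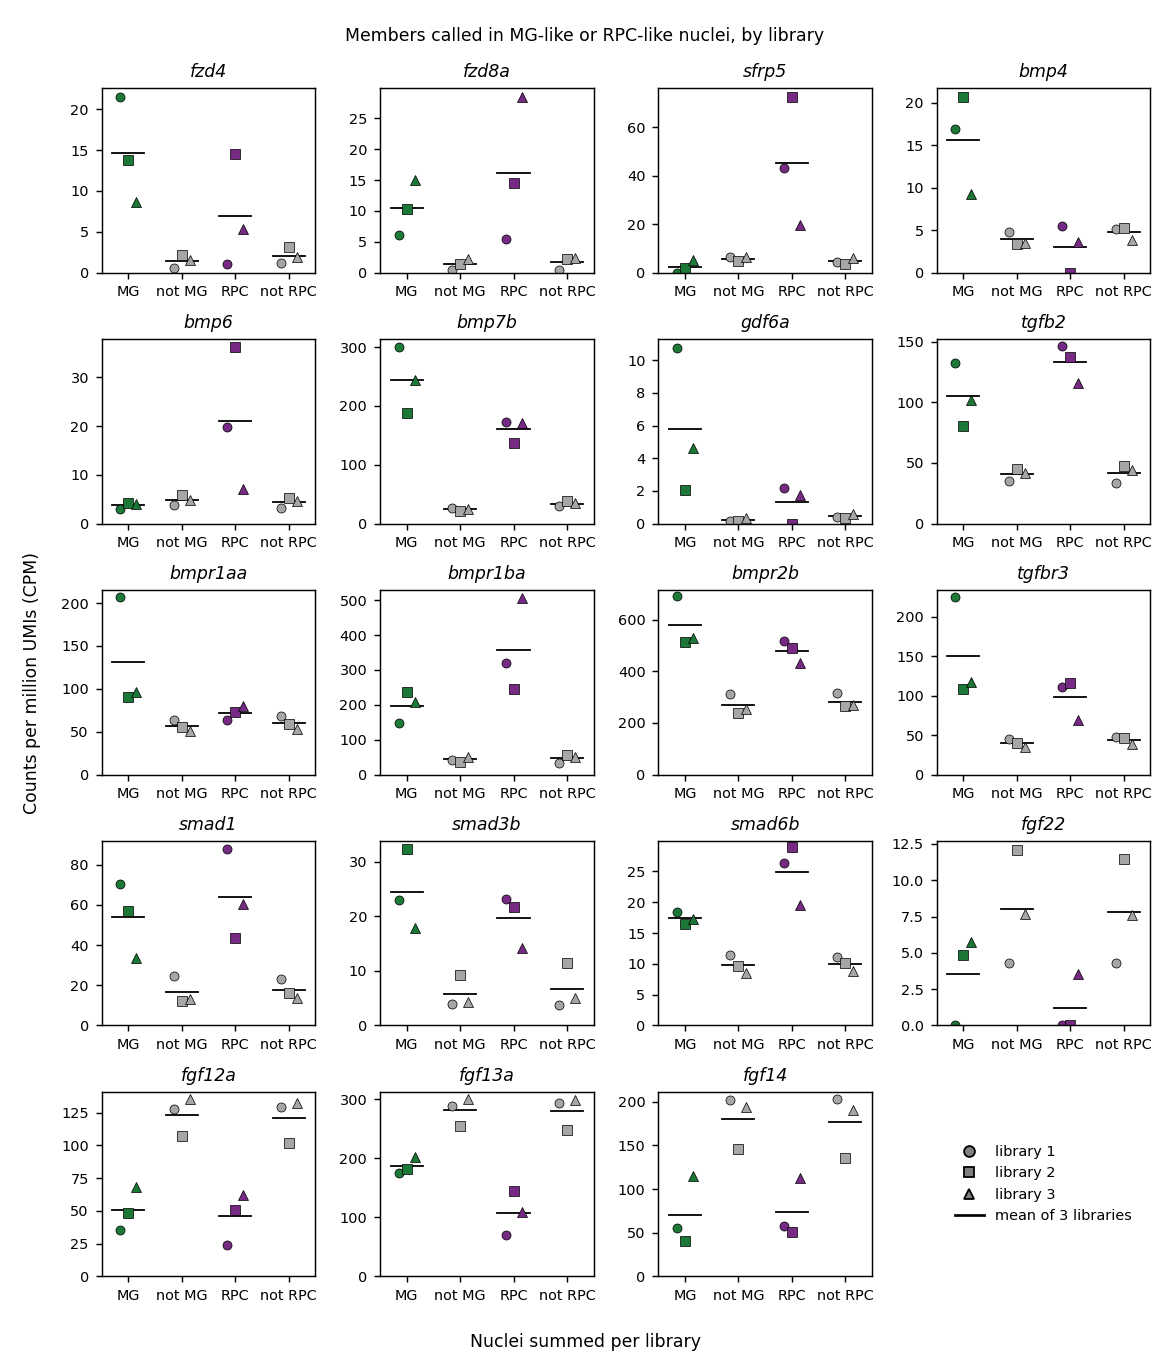
Levels in CPM of the 19 members called in MG-like or RPC-like nuclei, with MG-like (green) beside all nuclei but MG-like and RPC-like (purple) beside all nuclei but RPC-like, 1 point per library and a bar at the mean. In *bmp7b*, *tgfb2*, *bmpr1ba*, *smad1* and *smad3b* the points of both classes lay above those of the other nuclei. Among the groups shown, *sfrp5* and *bmp6* were high in RPC-like nuclei and *bmp4* and *gdf6a* in MG-like nuclei.

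Receptors of the BMP and TGF-beta branch were the largest group of called members in MG-like nuclei, where their median log2 fold change was 1.12 over 7 genes. *bmpr1ba*, a type I BMP receptor (chromosome 3, 267691142 to 268228008), had 149, 236 and 209 CPM in MG-like nuclei against 41.7, 37.02 and 50.5 CPM in all other nuclei (2.21 ± 0.22), and 320, 246 and 506 CPM in RPC-like nuclei against 33.0, 55.4 and 51.2 CPM in all nuclei but these (2.76 ± 0.22). RPC-like values lay above MG-like values in each library and did not overlap with them, with a log2 difference of 0.75 ± 0.23 that passed the adjusted p (0.042, edgeR) but not the fold limit. *bmpr1aa*, the other type I BMP receptor, had 207, 90.3 and 95.8 CPM in MG-like nuclei against 63.5, 55.6 and 50.4 CPM in all other nuclei (1.13 ± 0.21), and 63.9, 72.4 and 80.2 CPM in RPC-like nuclei, where it was not called. Without library 1 the glial change of *bmpr1aa* was 0.83, under the fold limit.

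*bmpr2b*, the type II BMP receptor, had 693, 512 and 531 CPM in MG-like nuclei against 312, 240 and 255 CPM in all other nuclei (1.12 ± 0.20). RPC-like nuclei had 518, 492 and 431 CPM of it, and the log2 fold change there did not reach 1. *tgfbr3*, betaglycan, a co-receptor that presents TGF-beta2, had 224, 108 and 117 CPM in MG-like nuclei against 45.0, 39.9 and 34.5 CPM in all other nuclei (1.86 ± 0.20). In RPC-like nuclei it had 111, 116 and 69.5 CPM (0.89 ± 0.23, under the fold limit). In library 1 *bmpr1aa*, *bmpr2b* and *tgfbr3* were higher in MG-like nuclei than in the other libraries, and that library had the fewest MG-like nuclei. Without library 1, *bmpr2b* and *tgfbr3* kept their calls, and with doublets kept the change of *bmpr2b* was 0.998, just under the limit. *tgfbr1b*, *tgfbr2b* and *tgfbr2l* were called in neither class.

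Of the Smads, which carry the signal to the nucleus, *smad1*, an effector of BMP receptors, had 70.7, 57.2 and 33.5 CPM in MG-like nuclei against 24.5, 11.9 and 13.3 CPM in all other nuclei (1.73 ± 0.23). In RPC-like nuclei it had 88.1, 43.4 and 60.6 CPM against 23.2, 16.3 and 13.6 CPM in all nuclei but these (1.71 ± 0.27). *smad3b*, an effector of TGF-beta receptors, had 23.1, 32.4 and 17.9 CPM in MG-like nuclei against 3.94, 9.22 and 4.31 CPM (2.11 ± 0.27), and 23.1, 21.7 and 14.2 CPM in RPC-like nuclei against 3.70, 11.5 and 4.96 CPM (1.69 ± 0.45). Neither gene overlapped between class and reference. The inhibitory *smad6b* passed in RPC-like nuclei, with 26.4, 29.0 and 19.6 CPM against 11.1, 10.1 and 8.86 CPM (1.04 ± 0.39, adjusted p = 0.036 by edgeR), and had 18.4, 16.5 and 17.3 CPM in MG-like nuclei against 11.5, 9.61 and 8.54 CPM, where its change of 0.87 ± 0.26 was under the fold limit. Near-empty droplets had 12.1, 11.3 and 7.48 CPM of *smad6b* and a mean of 2.09 CPM of *smad3b*. The calls in RPC-like nuclei were lost for *smad6b* without any 1 library (adjusted p = 0.32, 0.079 and 0.22 without libraries 1, 2 and 3, edgeR) and by DESeq2 (adjusted p = 0.061), and for *smad3b* without library 1 (1.12, adjusted p = 0.41 by edgeR). The shared *smad4*, the Smad with most UMIs, was called in neither class, with 132, 117 and 93.5 CPM in MG-like and 166, 130 and 128 CPM in RPC-like nuclei, against 121, 105 and 85.3 CPM over all nuclei kept.

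FGF ligands were not called higher in either class. *fgf2*, the one with most UMIs, had 19.98, 58.6 and 58.9 CPM in MG-like nuclei and 45.2, 36.2 and 55.2 CPM in RPC-like nuclei, against 19.3, 61.5 and 50.0 CPM over all nuclei kept and 2.52, 12.2 and 13.6 CPM in near-empty droplets. The RPC-like level was above that of all nuclei kept in libraries 1 and 3 and below it in library 2. *fgf22* was called lower in RPC-like nuclei on 2 UMIs (0, 0 and 3.56 CPM, against 4.32, 11.5 and 7.63 CPM in all nuclei but these). The ratio of the pooled levels was 0.168, with an exact 95% interval from counting of 0.0203 to 0.612. The call was lost without any 1 library (adjusted p = 0.41, 0.17 and 0.074 without libraries 1, 2 and 3, edgeR) and by DESeq2 (adjusted p = 0.14). Those other nuclei include the HC-like ones, which had 133 CPM of it on average, while all remaining named classes averaged 1.52 to 7.43 CPM.

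The FHFs, which keep FGF names but stay inside the cell and bind sodium channels, were called lower in 2 of 3 cases in MG-like nuclei and in 3 of 3 in RPC-like nuclei. *fgf12a* had 35.4, 48.3 and 68.1 CPM in MG-like nuclei against 128, 107 and 136 CPM in all other nuclei (-1.26 ± 0.22), and 24.2, 50.7 and 62.3 CPM in RPC-like nuclei against 130, 102 and 133 CPM (-1.81 ± 0.25). *fgf14* had 55.3, 40.0 and 115 CPM in MG-like nuclei against 201, 146 and 194 CPM (-1.43 ± 0.24), and 57.3, 50.7 and 112 CPM in RPC-like nuclei against 203, 136 and 191 CPM (-1.53 ± 0.24). *fgf13a* was called lower in RPC-like but not in MG-like nuclei, with 70.5, 145 and 109 CPM in RPC-like nuclei against 294, 248 and 299 CPM (-1.74 ± 0.23). It was also the single member called lower in RPC-like than in MG-like nuclei, where it had 175, 182 and 203 CPM (-1.03 ± 0.24, adjusted p = 0.0074 by edgeR). That direct difference was -0.79 without library 1, under the fold limit, and just under it without library 3. Where these 3 genes were called lower in MG-like or RPC-like nuclei, no value reached a value of its reference nuclei. Low FHFs were not particular to these classes. Rod-like, PR precursor-like and HC-like nuclei each had 2 of 3 called lower, with median log2 fold changes of -2.48, -1.32 and -1.23, and HC-like nuclei had 1 called higher.

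**Figure D3:**
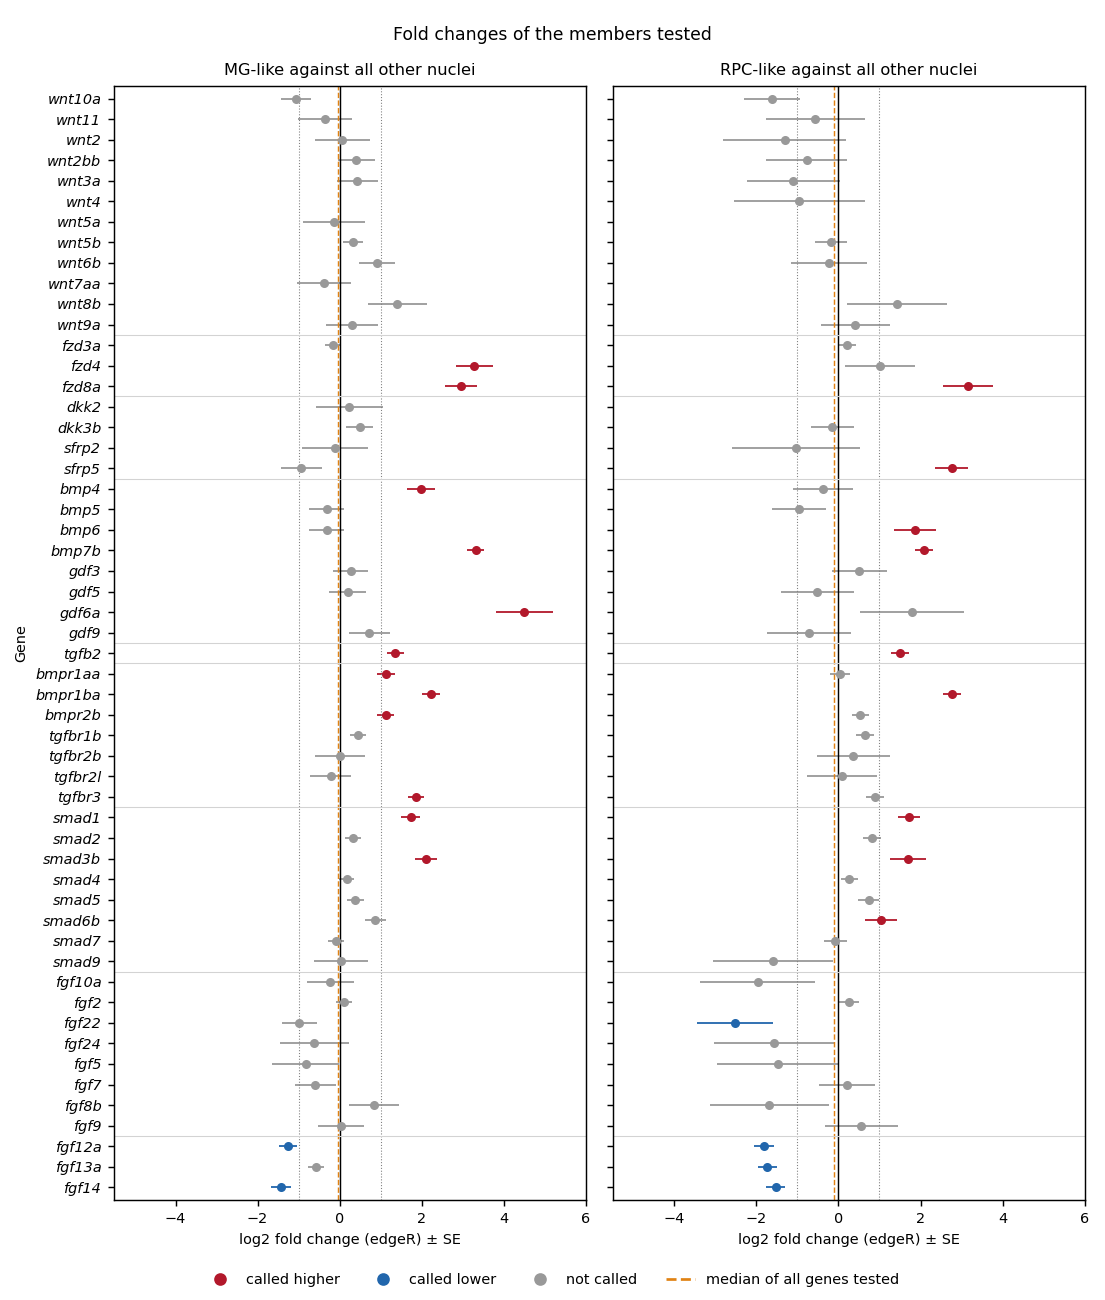
Log2 fold changes with standard errors of the members tested, in MG-like (left) and RPC-like nuclei (right) against all other nuclei, ordered by role from Wnt ligands (top) to FHFs (bottom); red and blue points were called higher and lower, dotted lines mark the fold limit of 1 and the dashed line the median of all genes tested. The called points above 0 were Frizzled receptors, BMP and TGF-beta ligands, their receptors, Smads and, in RPC-like nuclei, the antagonist *sfrp5*, those below 0 were FHFs and, in RPC-like nuclei, *fgf22*, and the name-only matches are left out.

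Directly between progenitors and glia, 28 members had enough counts to be tested. RPC-like nuclei had 1 called higher, *sfrp5* (3.57% of the members, against 4.86% of all 11194 genes tested), and 1 called lower, *fgf13a* (against 7.61% of all genes). The median was 0.08 over the members and -0.01 over all genes. Beside *bmpr1ba*, 3 members passed the adjusted p without reaching the fold limit, all lower in RPC-like nuclei: *bmp7b* (-0.73 ± 0.21), *bmpr1aa* (-0.99 ± 0.30) and *tgfbr3* (-0.79 ± 0.25).

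Other genes of the pathways were counted from lists of symbols, beside which 7.18% of all genes were called higher and 4.73% lower in MG-like nuclei, and 6.4% and 10.4% in RPC-like nuclei. Unlike the members, the listed genes were not left out of the genes used for clustering. They could thus help to define the classes in which they were then tested. Of 7 tested Wnt receptors and co-receptors outside the families above, 4 rose in MG-like nuclei (*lrp5*, *ror1*, *lgr4*, *gpc4*) and 2 in RPC-like nuclei (*lgr4*, *gpc4*). *lgr4*, the receptor of R-spondins, had 220, 187 and 186 CPM in MG-like nuclei against 60.2, 51.9 and 49.5 CPM in all other nuclei, and 316, 384 and 232 CPM in RPC-like nuclei against 54.1, 62.6 and 54.4 CPM. *ror2*, a receptor of non-canonical Wnt ligands, was called higher in RPC-like than in MG-like nuclei (1.60 ± 0.29), with 101, 65.1 and 65.9 CPM against 30.7, 18.6 and 20.2 CPM. Of 12 tested Wnt intracellular and target genes, 5 rose and 1 fell in each class. The transcription factors *tcf7l2* (3.19 ± 0.20 in MG-like, 2.41 ± 0.22 in RPC-like nuclei) and *lef1* and the feedback inhibitors *nkd1* and *nkd2b* rose in both, and *apc2* fell in both. *nkd1* had 241, 355 and 240 CPM in RPC-like nuclei, against 131, 155 and 67.0 CPM in MG-like nuclei and 29.8, 32.2 and 18.8 CPM in all nuclei but the RPC-like ones. *tcf7* rose in RPC-like nuclei (2.22 ± 0.32) and *znrf3*, a ligase that removes Frizzled from the surface, in MG-like nuclei (1.28 ± 0.26). Without library 2, *lef1*, *znrf3* and the co-receptor *lrp5* were not called in MG-like nuclei, which left 3 of these targets, and without library 1, *lef1* and *nkd2b* were not called in RPC-like nuclei, which also left 3.

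Among 6 tested genes of Wnt secretion and modulation, *kremen1* rose in both classes. *wls*, which carries Wnt proteins to the cell surface, fell in RPC-like nuclei (-2.97 ± 0.56). It had 3.31, 7.24 and 1.78 CPM there, against 22.4, 20.8 and 19.8 CPM in all nuclei but these. The RPC-like levels in libraries 2 and 3 are worth 1 UMI each. The reference includes the RGC-like nuclei, and *wls* was among the 10 leading genes of an RGC-like cluster. The secreted inhibitor *wif1* fell in RPC-like nuclei too (-1.54 ± 0.24). Of 9 tested planar polarity genes, 1 rose and 1 fell in MG-like nuclei and 2 rose and 2 fell in RPC-like nuclei, a few genes each beside the shares of all genes: *celsr1a* rose and *prickle1b* fell in both classes, and *celsr2* rose and *prickle2b* fell in RPC-like nuclei. Without library 1, *prickle1b* in MG-like nuclei (-0.68) and *celsr2* (0.86) and *prickle2b* (-0.79) in RPC-like nuclei were under the fold limit.

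Of 12 tested BMP and TGF-beta ligands and antagonists outside the families, 3 rose in MG-like nuclei, among them *chrdl2*, a chordin-like BMP antagonist, with 561, 1579 and 416 CPM against 13.5, 32.3 and 24.6 CPM in all other nuclei (5.04 ± 0.31), and *nbl1*, an antagonist of the Dan family (3.74 ± 0.41), with 555, 76.5 and 80.8 CPM against 12.1, 10.9 and 11.6 CPM. Both were lower in RPC-like than in MG-like nuclei (-2.44 ± 0.34 and -4.74 ± 0.37), and RPC-like nuclei had 51.8, 253 and 201 CPM of *chrdl2*. As a leading gene of the MG-like class that was open to the clustering, *chrdl2* could have helped to define that class. In RPC-like nuclei 3 rose (*fstl1b*, *ogna* and *mstnb*) and *nbl1* fell, a call of *nbl1* that was lost without any 1 library, while that of *ogna* was lost without library 3 and that of *fstl1b* in MG-like nuclei without library 1. *ogna* was on the list but encodes osteoglycin, a matrix proteoglycan, and not a ligand or antagonist of these pathways. None of 3 tested receptors of these pathways outside the families was called. Of 12 tested intracellular and target genes of the branch, only *id1*, a transcriptional target of BMP signalling, was called, in both classes: 211, 42.1 and 36.4 CPM in MG-like nuclei against 16.8, 31.2 and 8.76 CPM in all other nuclei (2.11 ± 0.39), and 139, 94.1 and 69.5 CPM in RPC-like nuclei against 17.6, 31.7 and 9.26 CPM (2.40 ± 0.24). The glial level of *id1* in library 1 was several times that of the other libraries, and RPC-like values did not overlap with their reference.

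Of 19 tested intracellular and target genes of FGF signalling, 7 rose and none fell in MG-like nuclei, and 3 rose and 2 fell in RPC-like nuclei. The feedback inhibitors *spry1*, *spry2*, *spry4* and *spred1*, the transcription factor *etv4* and the adaptor *gab1* were among those that rose in MG-like nuclei. *spry4* had 33.8, 22.1 and 16.2 CPM in MG-like nuclei against 7.41, 4.92 and 4.12 CPM (2.12 ± 0.27), and 22.03, 57.9 and 24.9 CPM in RPC-like nuclei against 7.60, 6.16 and 4.45 CPM (2.04 ± 0.41). *spry2* and *spred1* were lower in RPC-like than in MG-like nuclei (-1.80 ± 0.45 and -1.20 ± 0.30), and neither was called without library 1. The 2 genes that fell in RPC-like nuclei, *dusp4* and *map2k1*, were not called without library 1 or by DESeq2, and *dusp4* was not called without library 2 or library 3 either. Without library 2, *spred1*, *etv4* and *raf1b* were not called in MG-like nuclei, which left 4 of the 7. On the list of FGF receptors and co-receptors 7 genes were tested, among them *il17rd*, which is an inhibitor of FGF signalling and not a co-receptor. Of these, *sdc4* and *il17rd* rose and *sdc3* fell in both classes. *sdc2* fell in RPC-like nuclei, with 40.8, 116 and 51.7 CPM against 113, 103 and 97.5 CPM in all nuclei but these (-1.09 ± 0.24) and 283, 139 and 144 CPM in MG-like nuclei (-1.82 ± 0.36). The call of *sdc2* against all other nuclei was lost without library 1 and by DESeq2. Further, without library 2 neither *sdc4* nor *il17rd* was called in RPC-like nuclei, where *il17rd* stood at -0.16 without library 1 (adjusted p = 0.99 by edgeR). Without library 3, *il17rd* was not called in MG-like nuclei and *sdc4* was not called in RPC-like nuclei. These lists describe genes chosen by name, and their medians in MG-like nuclei ran from -0.53 for the 3 further BMP and TGF-beta receptors to 1.02 for the Wnt receptors and co-receptors, beside -0.03 for all genes.

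Outside glia and progenitors, members were called higher in every named class but the BC-like one, where 0 of 52 were (against 4.4% of all genes tested by edgeR). There 2 members had a positive change with an unadjusted p under 0.05, and DESeq2 called 0. In RGC-like nuclei 4 of 52 members were called higher (7.69%, against 6.58% of all genes). *wnt10a* (chromosome 2, 278323493 to 278386673) was the Wnt ligand with the largest fold change in any class, and it had 31.0, 98.6 and 53.8 CPM in RGC-like nuclei against 3.41, 4.98 and 4.30 CPM in all other nuclei (3.82 ± 0.20). Near-empty droplets had 17.8, 7.61 and 7.06 CPM, above the other nuclei and below the RGC-like ones in each library, and no other named class averaged over 7.66 CPM. The FHF *fgf12a* had 505, 439 and 357 CPM in RGC-like nuclei against 87.1, 70.2 and 102 CPM (2.42 ± 0.16). For both genes RGC-like nuclei were highest in 3 of 3 libraries. The other called members were *fgf5* and *sfrp2*, at under 5 CPM on average (near-empty droplets 0.395 and 1.01 CPM), and both calls were lost without library 1 and without library 2, that of *sfrp2* also without library 3 and by DESeq2 (adjusted p = 0.14).

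In HC-like nuclei 2 of 54 members were called higher (3.70%, against 3.21% of all genes). *fgf22*, a ligand that organises presynaptic sites in the mouse brain, had 75.3, 248 and 74.7 CPM in HC-like nuclei against 2.02, 4.19 and 4.97 CPM in all other nuclei (5.00 ± 0.35), the largest fold change of any member in any class tested, with 0.467, 3.54 and 3.22 CPM in near-empty droplets. The level in library 2 was above 3 times that of the other libraries, and every HC-like value lay above all values of the other classes. *fgf13a* had 711, 735 and 688 CPM in HC-like nuclei against 272, 232 and 280 CPM (1.49 ± 0.17).

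Each of the 3 amacrine classes had 3 members called higher, and differences between these classes were not tested. GABAergic AC-like nuclei had 3 of 56 (against 4.51% of all genes): the BMP ligand *bmp5* with 21.4, 28.0 and 15.8 CPM against 2.87, 5.14 and 5.65 CPM in all other nuclei (2.27 ± 0.28, near-empty droplets 2.43 CPM), *fgf13a* with 679, 499 and 509 CPM against 192, 196 and 236 CPM (1.48 ± 0.15), and *wnt5a* at 2.38, 6.69 and 1.32 CPM. The call of *wnt5a* was lost without library 2 (1.25, adjusted p = 0.15 by edgeR). Cholinergic AC-like nuclei had 3 of 54 (against 3.21%): *bmpr1ba* with 186, 198 and 101 CPM against 38.7, 51.9 and 58.2 CPM (1.75 ± 0.21), *dkk3b* with 36.0, 15.2 and 22.5 CPM against 6.17, 6.85 and 10.2 CPM (1.77 ± 0.31, near-empty droplets 9.33 CPM), and *fgf8b* on 15 UMIs, a call lost without library 1 (1.37, adjusted p = 0.22 by edgeR) and by DESeq2 (adjusted p = 0.15). Glycinergic AC-like nuclei had 3 of 54 (against 2.64%): *tgfb2* with 102, 81.4 and 89.1 CPM against 33.9, 46.6 and 42.1 CPM (1.25 ± 0.17), *bmp7b* (1.11 ± 0.27), and *wnt9a* with 19.9, 2.54 and 3.63 CPM against 2.67, 2.08 and 1.45 CPM, high in library 1 alone. Without library 1, *wnt9a* was at 1.03 (adjusted p = 0.37 by edgeR) and *bmp7b* at 0.56, under the fold limit, and *bmp7b* was also lost without library 2 (adjusted p = 0.11 by edgeR). The highest mean of *wnt9a* was in the unnamed cluster 7, with 24.1 CPM against 8.70 CPM in glycinergic AC-like nuclei.

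In PR precursor-like nuclei 3 of 55 were called higher (against 3.83% of all genes). *smad2* had 249, 136 and 169 CPM against 101, 82.3 and 76.0 CPM in all other nuclei (1.04 ± 0.16), *gdf3* had 7.19, 11.0 and 7.40 CPM against 2.47, 3.93 and 4.33 CPM (1.26 ± 0.30), and *wnt7aa* had 0.799, 18.2 and 3.70 CPM against 1.04, 2.202 and 0.828 CPM, high in library 2 alone. The highest means of *smad2* were in RPC-like nuclei (195 CPM), where it was not called, and in the unnamed cluster 10 (190 CPM). Near-empty droplets averaged 2.72 CPM of *gdf3* and 2.21 CPM of *wnt7aa*. Without library 2, *wnt7aa* was at 0.94 (adjusted p = 0.39 by edgeR), and without library 1 *gdf3* missed the adjusted p (0.056, edgeR) and *smad2* the fold limit (0.93), as *smad2* did without library 3 (0.97). Rod-like nuclei had 1 of 53 called higher (against 6.14% of all genes), the inhibitory *smad7*, with 73.3, 71.7 and 62.3 CPM against 31.7, 31.8 and 29.2 CPM (1.36 ± 0.12). The unnamed cluster 10 averaged 68.5 CPM of *smad7*, against 69.1 CPM in rod-like nuclei, which were the highest in 1 of 3 libraries. Near-empty droplets had 35.0 CPM of it in library 1 and 36.6 CPM in library 3. The most members called lower in any class were in rod-like nuclei, 15 of 53 (28.3%, against 16.2% of all genes), a direction given here after it was seen. DESeq2 called 10 lower, and *bmp4*, *fgf22*, *sfrp5*, *smad3b*, *wnt9a* and *wnt10a*, among the 15, lost the call without at least 1 library, 5 of them without library 2. They included *bmpr1ba* (8.53, 10.6 and 11.7 CPM against 52.4, 67.4 and 69.6 CPM), *tgfbr3* (14.7, 8.27 and 11.0 CPM against 57.7, 55.2 and 45.1 CPM) and *fgf13a* (24.8, 22.05 and 49.3 CPM against 339, 296 and 342 CPM).

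**Figure D4:**
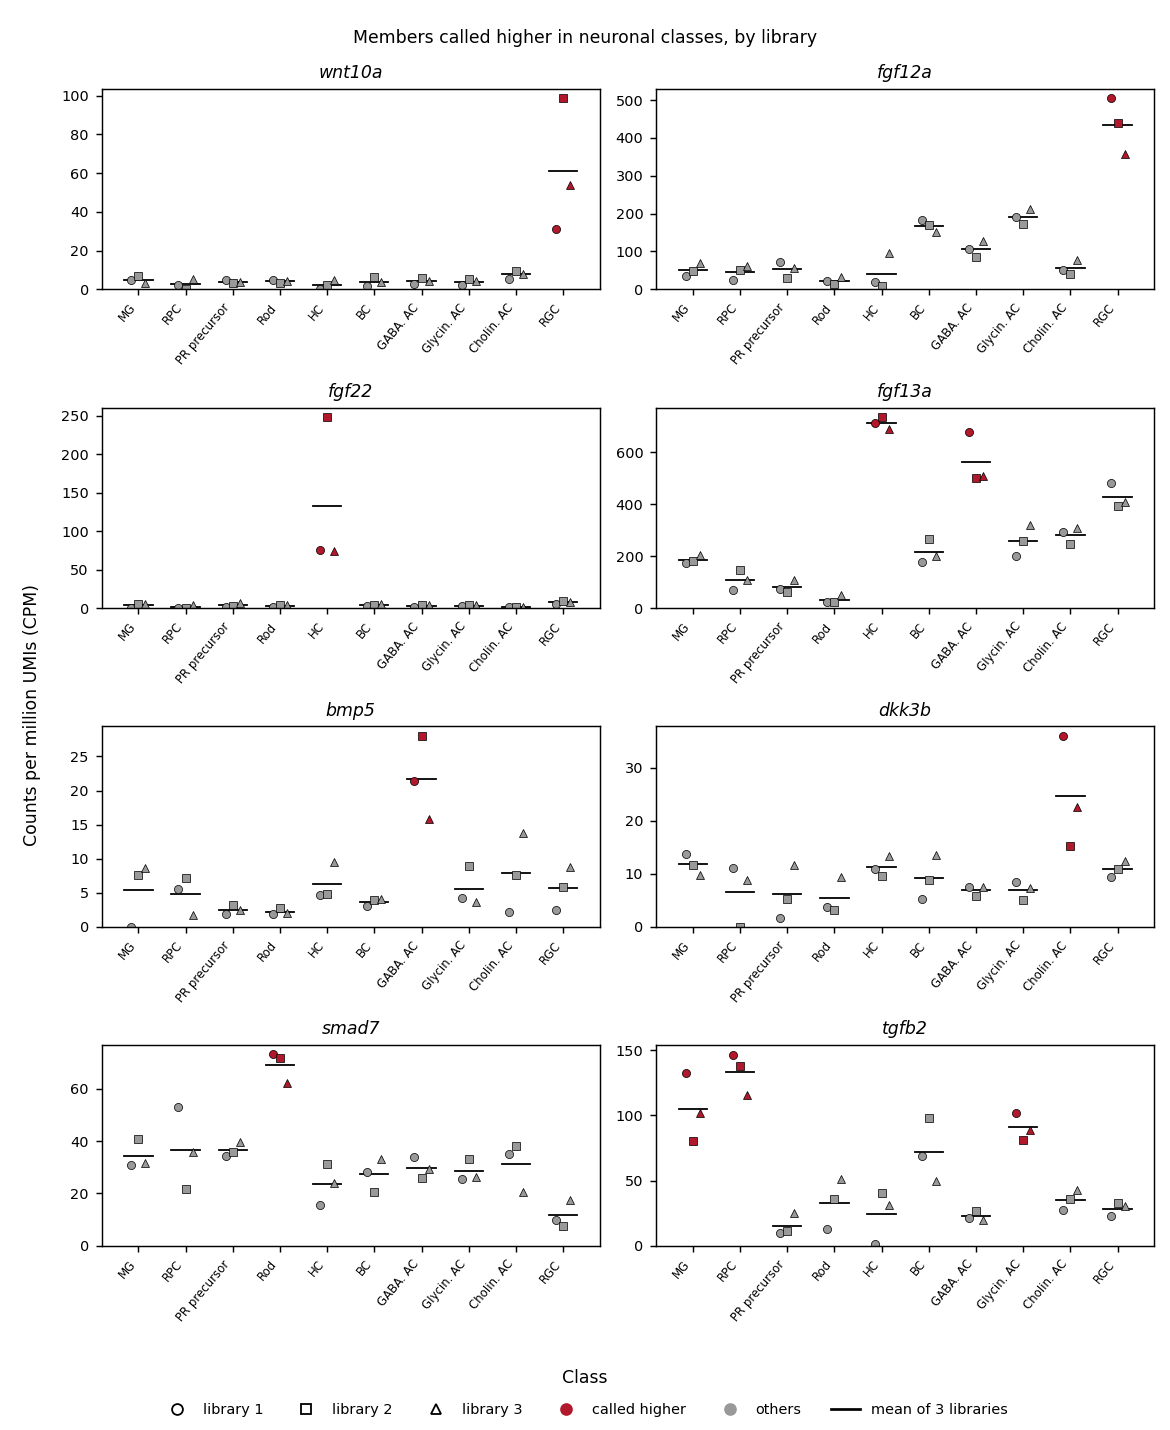
Levels in CPM of 8 members in the 10 named classes, 1 point per library with a bar at the mean; red points mark classes in which the gene was called higher than in all other nuclei. *wnt10a* stood out in RGC-like nuclei at 31.0 to 98.6 CPM and *fgf22* in HC-like nuclei at 74.7 to 248 CPM, whereas *tgfb2* was called in MG-like, RPC-like and glycinergic AC-like nuclei.

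Across the 10 classes and 4 unnamed clusters, the highest mean was in RPC-like nuclei for 14 of the 60 members and in MG-like nuclei for 8. The class of the highest mean was also the highest in each of the 3 libraries for 15 members, 4 of them in RPC-like, 3 in MG-like, 2 each in RGC-like and HC-like nuclei, and for 6 members its lowest library lay above the highest library of the next class. For the members beyond those 15 the highest class was not the same in every library. These counts were not made over all features, so they cannot be read as a trait of the members. In the RPC-like sum of library 2, 1 UMI was worth 7.24 CPM, so a highest mean there can rest on few UMIs. Each of the 4 unnamed clusters, which were not tested, had the highest mean for 2 to 9 members. Cluster 7, 775 nuclei with 11 of 18 progenitor markers and 4 pigment epithelium markers raised but none among its 10 leading genes except *pmela*, had the highest mean for 9 members, among them *bmp4* with 19.2, 25.6 and 25.0 CPM, against 16.9, 20.7 and 9.24 CPM in MG-like nuclei. At a finer resolution this cluster split into 580 nuclei that joined the RPC-like class and 195 that did not, and *bmp4* was at 0, 17.7 and 1.74 CPM in the first and at 55.2, 36.6 and 63.6 CPM in the second. The 195 nuclei formed an unnamed cluster with 5 of 7 pigment epithelium markers raised (*pmela*, *mlana*, *oca2*, *dct* and *slc45a2*) and 5 oligodendrocyte markers raised. The cluster that held the 580 nuclei at that resolution (588 nuclei, median 1184.5 UMIs, against 2803 UMIs in RPC-like nuclei) had 15 of 18 progenitor markers raised but none among its 10 leading genes. Ribosomal protein genes and features without a symbol led it, and 4 of the features without a symbol were among the leading genes of the set-aside cluster with erythroid markers. *bmp7b* and *bmpr1ba*, both called higher in RPC-like nuclei, were low in the 580 nuclei. *bmp7b* was at 8.86, 4.41 and 13.9 CPM, against 172, 138 and 171 CPM in the 385 RPC-like nuclei. *bmpr1ba* was at 38.4, 22.1 and 19.1 CPM, against 320, 246 and 506 CPM. The other members called higher in RPC-like nuclei are not given for the 580 nuclei. In cluster 7 as a whole, *sfrp5* (16.0 CPM) and *bmp6* (7.58 CPM) had their highest means after those of RPC-like nuclei.

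**Figure D5:**
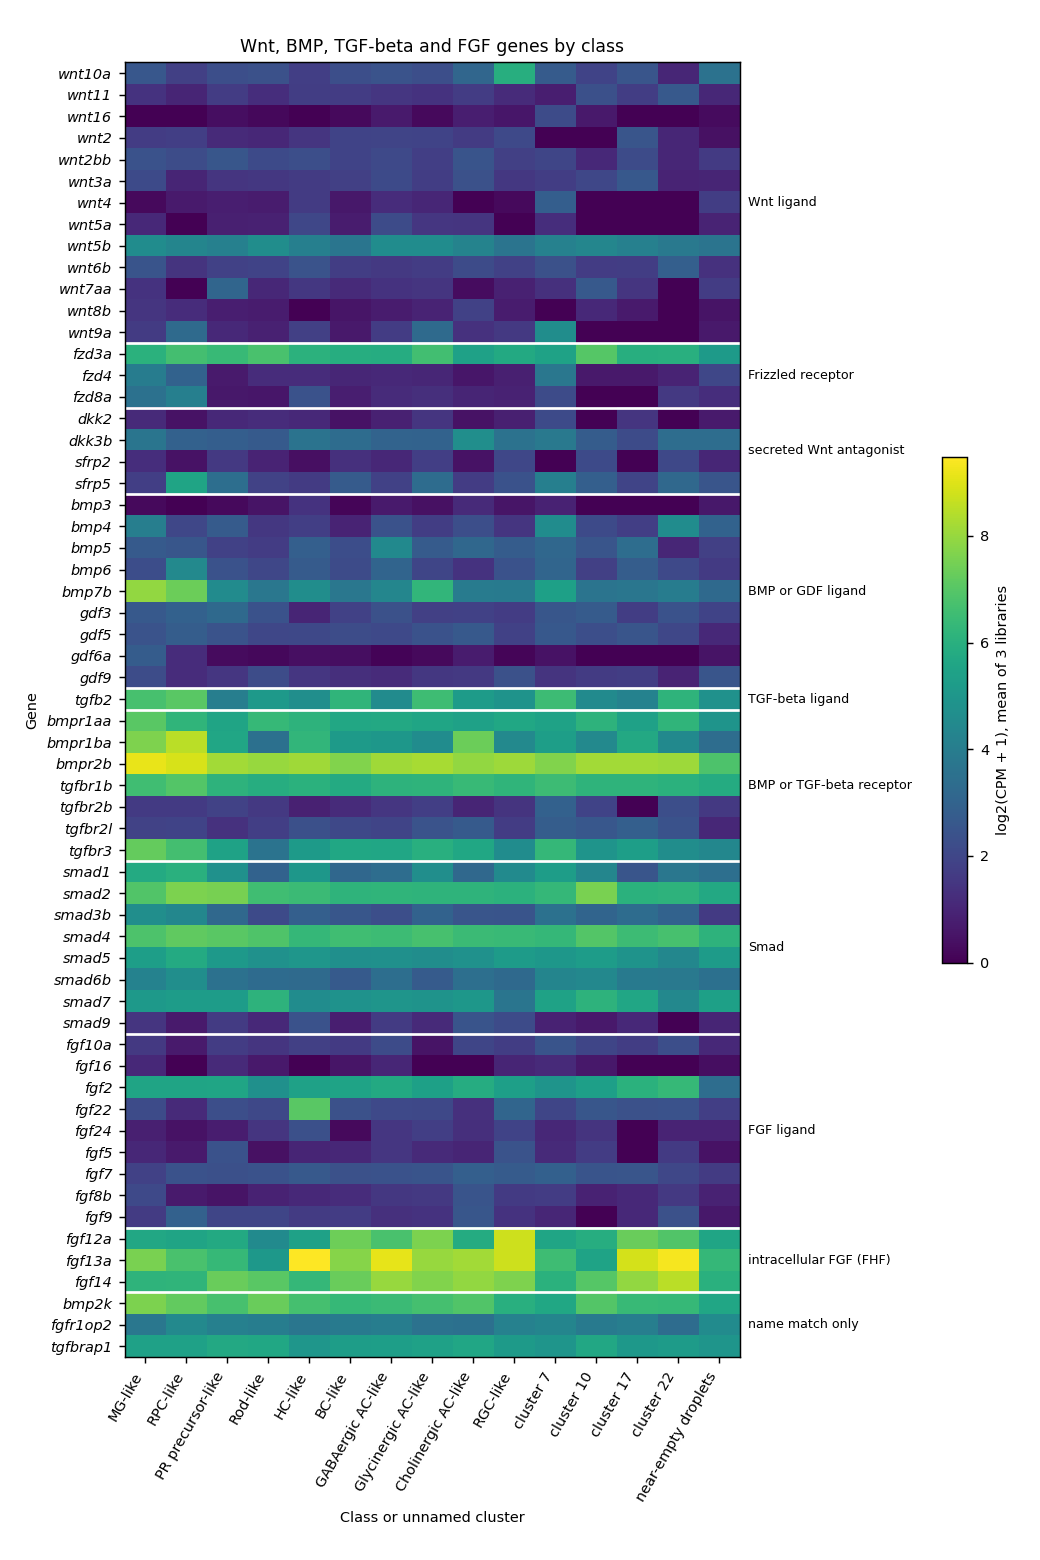
Mean level of each of the 60 members over 3 libraries, as log2(CPM + 1), in the 10 named classes, 4 unnamed clusters and near-empty droplets, grouped by role. Most Wnt and FGF ligands were dark throughout, and in the rows of *bmp7b* (RPC-like 160 CPM, MG-like 244 CPM) and *bmpr1ba* (RPC-like 357 CPM, MG-like 198 CPM) the RPC-like and MG-like columns were the brightest of the named classes.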

How the data were processed

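Nuclei of 3 retinas were captured in droplets with unique molecular identifiers (UMIs). The authors mapped reads to build sScyCan1.1 with STARsolo (STAR 2.7.10a), counting exons and introns of each gene, and deposited raw UMI counts for all barcodes, unfiltered and not pooled. Symbols and positions came from the RefSeq annotation of the same build. No column of another sample was present (0 columns).

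Barcodes with at least 200 features and under 10% mitochondrial UMIs were kept within each library's limits, as the study's methods give them: over 1000, 500 and 750 and under 20000, 24000 and 20000 UMIs, and over 500, 500 and 300 and under 5500, 6500 and 7000 features, for libraries 1, 2 and 3. Doublets were called per library with simulated doublets at an assumed rate of 4% (195, 149 and 359 nuclei). Nuclei were clustered with Seurat 5.3.0 and sctransform 0.4.2 in R 4.3.3 (2000 integration features, 30 principal components, resolution 0.5, cell cycle scores regressed out). Genes of a marker list counted as raised at a log2 ratio of 1 or more and 10 CPM or more. The list with the largest summed log2 ratio over its raised genes could name a cluster. It needed at least 3 raised genes, more than any other list, and a mean log2 ratio of at least 0.5. No other list could have more genes among the 10 leading genes, and a shallow cluster needed a gene of its list there. 

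Sums of raw counts for each class in each library were tested with edgeR 4.0.16 (trimmed mean of M-values scaling, a filter on low counts, quasi-likelihood test, Benjamini-Hochberg adjustment over all features tested). The class and the other nuclei of a library came from the same animal, so library was a block. Genes were called at an adjusted p under 0.05 and an absolute log2 fold change of at least 1. P-values weigh the difference between class and reference within animals against an estimate of how much it varied over the 3 animals. That estimate borrows from all genes tested, so it can reflect a spread shared by genes more than that of 1 gene. How much is borrowed can differ between comparisons. *bmp7b* had the smaller fold change but also the smaller adjusted p in RPC-like nuclei. P-values of MG-like and RPC-like nuclei are therefore not to be set against each other. Intervals and floors (3 counts) cover counting error only. Scripts were tested on simulated counts.

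The members and lists were chosen with earlier results of these data known. Named with values were called members of the glial and progenitor comparisons (at most 12 per direction, at least 10 CPM), the member with the highest mean in each role group, at most 2 members per other class and at most 4 called genes per pathway list. Other genes named in the text were chosen after their values were seen. Alternatives were DESeq2 1.42.0, no filter, no block, each library left out, clustering with the members, resolutions 0.3 and 0.8, doublets kept, no cell cycle regression, a mitochondrial limit of 5%, the lower limits of library 1 throughout, and other nuclei without rods and their precursors.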

Additional observations from a re-analysis of the deposited data

Results flagged for a closer look

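The 3 clusters set aside before the comparisons were examined for members as well, in the library that held most of their nuclei. Most of the signals came from a cluster of 745 nuclei, 91.9% of them from library 1, in which all 5 epithelial markers of the annotation were raised. Compared with the nuclei kept of library 1, this cluster had 31.0 CPM of *wnt4* (131 UMIs) against 1.37 CPM, 30.2 CPM of *wnt6b* (128 UMIs) against 2.09 CPM, and 13.5 CPM of *wnt7aa* (57 UMIs) against 1.00 CPM. It also had 8.74 CPM of *wnt3a* (37 UMIs) against 2.09 CPM and 4.96 CPM of *wnt5a* (21 UMIs) against 0.956 CPM. The type II TGF-beta receptor *tgfbr2b* stood at 47.3 CPM (200 UMIs) against 2.37 CPM, *smad3b* at 23.9 CPM (101 UMIs) against 4.51 CPM, and *bmp3* at 6.38 CPM (27 UMIs) against 0.364 CPM. The second cluster, 120 nuclei with 95.8% from library 1 and the erythroid markers *rhd* and *tubb1* raised, had 56.3 CPM of *tgfbr2b* on 14 UMIs. These values were picked out because a member in nuclei outside the comparisons lay above its level in the nuclei kept. Each comes from a single library, so no test was made, and whether these nuclei belonged to the retina was not tested.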

How the results depend on the processing

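Of 132 combinations of a named gene and a comparison, members and pathway genes together, 75 kept their call under every alternative run. Of the 994 values these alternatives gave, 846 kept the call, 147 lost it and 1 had the other sign: *il17rd* in RPC-like nuclei, at -0.16 without replicate 1 and 2.68 without replicate 3. The number of members called higher in MG-like nuclei was 11 to 13, against 12, and in RPC-like nuclei 6 to 10, against 9. Members called lower in MG-like nuclei, 2, became 5 without rods and their precursors among the other nuclei. The counts between RPC-like and MG-like nuclei, 1 each way, moved by more than 1.5 times under several alternatives: without the filter 2 were higher and 2 lower, with the lower limits of library 1 throughout 2 were higher, and 2 were lower with members among the clustering features, 4 at resolution 0.8 and 2 without cell cycle regression. Leaving out 1 library gave 1 to 2 higher and 0 to 3 lower there. The causes were not tested. Shares of all genes called under these settings, and under those of the next paragraph, are not given. The counts therefore show how far the calls depend on the processing and cannot be read as a trait of the members.

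Without the block on the animal, that is, without pairing, 11 members were called higher and 1 lower in MG-like nuclei, 6 higher and 3 lower in RPC-like nuclei, and 1 higher and 0 lower between the classes. Over the other classes the sum of members called higher was then 11, against 19. With the block, DESeq2 gave 17 and no filter 18. At resolution 0.3 glia and progenitors shared an unnamed cluster, so that setting gave no values. Leaving out all nuclei of cluster 7 and the glia from the reference of RPC-like nuclei, leaving out libraries for the other classes and every alternative for the pathway lists were added after seeing the data.

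Depth limits what low members can show: the RPC-like sums allow up to 1.87 CPM and the MG-like sums up to 0.783 CPM where no UMI was found. Levels rest on 3 animals of 1 stage, classes are rebuilt, genes without a symbol were not analysed here, and free RNA was approximated by near-empty droplets but not subtracted.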
